A study of Bos taurus with 6 samples.

Results

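The small heat shock proteins of muscle were followed at the transcript level in longissimus thoracis, a large back muscle, of 6 Japanese Black steers. The members were the genes CRYAB, HSPB1, HSPB2, HSPB3, HSPB6, HSPB7 and HSPB8, taken with every probe set whose platform annotation names exactly that 1 gene. Of the 7 genes, 6 had a probe set, HSPB1 had 2 and the others 1 each, which gives 7 of the 24016 probe sets tested. HSPB7 has no probe set under this rule and was not analysed here. The 3 vitamin A restricted steers received no vitamin A supplement, and the 3 vitamin A supplemented steers had a weekly oral dose of 296.8 IU for each kg of body weight. All 6 were castrated males, 13 to 14 months old at the start and 20 to 21 months old after a fattening period of 7 months with an intended gain of 1.0 kg a day. Ages in days averaged 598.3 ± 11.4 in restricted and 610.0 ± 9.17 in supplemented steers (SD, n = 3 each). A two-sided exact permutation test gave p = 0.2, where 0.1 is the smallest this design allows.

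Small heat shock proteins are chaperones without ATPase activity that share an alpha-crystallin domain and hold unfolding proteins in a state that other chaperones can refold or pass on to degradation. Striated muscle makes many of them, and they bind desmin filaments, titin, actin and the filamin of the Z-disc, where contraction and stress unfold proteins. CRYAB and HSPB1 are also induced by the heat shock factor HSF1. HSPB8 acts with the co-chaperone BAG3 and HSPA8 in the autophagic removal of damaged filamin.

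The deposited values are read as log2 values, and they hardly vary between arrays. The median probe set ranged over 6.77e-07 across the 6 arrays, and array medians lay 8.88e-06 apart. The step behind this narrow spread is not stated, so no difference is read as a fold change. Each is given in the units of the deposited log2 values and as a multiple of the within-group standard deviation (SD) of its own probe set. All 8 skeletal muscle markers examined (ACTA1, CKM, MB, MYH7, MYH1, TNNT3, TNNC1 and DES) had means above 90% of the table. The same was true of 5 of the 6 small heat shock genes, HSPB3 being the exception, and all 7 of their probe sets lay above the median of the table. In whole muscle, fewer cells of a type and less RNA per cell cannot be told apart.

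All 6 small heat shock genes had a higher mean in restricted than in supplemented steers, and none of them passed the test. Restricted means exceeded supplemented means in 48.3% of all tested probe sets. Array medians averaged 2.22e-06 more in restricted steers, which is more than most probe sets vary. Most probe sets do not share this offset, since without any shift only 48.3% were higher. Setting array medians equal therefore lowers the restricted values of most probe sets by itself. With array medians set equal the share of all probe sets that were higher was 6.96%, and all 6 genes, whose ranges of 2.62e-05 to 0.0275 are wide beside this offset, were still higher. Quantile normalization left a difference in 3 of the 6 genes, higher in CRYAB and HSPB1 and lower in HSPB6. The median difference over the 6 genes was 1.08 within-group SDs, from 0.257 in HSPB3 to 2.09 in HSPB8, against -0.0328 over all tested probe sets. After Benjamini-Hochberg adjustment over 24016 probe sets (limma, threshold 0.05), 0 of the 7 member probe sets were called, each with an adjusted p of 1, and 0.00416% of all tested probe sets were called. At an unadjusted limma p under 0.05, 1 member probe set was higher, that of HSPB8, and 0 were lower, where 4.08% of all tested probe sets passed, 1.91% being higher and 2.17% lower. Among the members, HSPB8 alone had groups that did not overlap. Groups did not overlap in 8.76% of all tested probe sets, with restricted steers above in 4.12% and below in 4.64%.

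A second pattern ran across the diets. Restricted steer 2 had the highest value of the 6 steers in 5 of the 6 genes, HSPB6 being the exception, where this steer was highest in 15.1% of all tested probe sets. With array medians set equal it was highest in the same number of the genes, 5, and in 3.38% of all probe sets. Most probe sets vary by less than this shift of the arrays, so the shift largely sets their steer order. The 3.38% is therefore no measure for the genes, whose ranges are wider. This steer was singled out after its values were seen. The 6 genes share the same RNA sample, so they are not independent counts. Without restricted steer 2, the mean of the other restricted steers was higher than the supplemented mean in 5 of the 6 genes, and HSPB3 turned to lower.

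**Figure D1:**
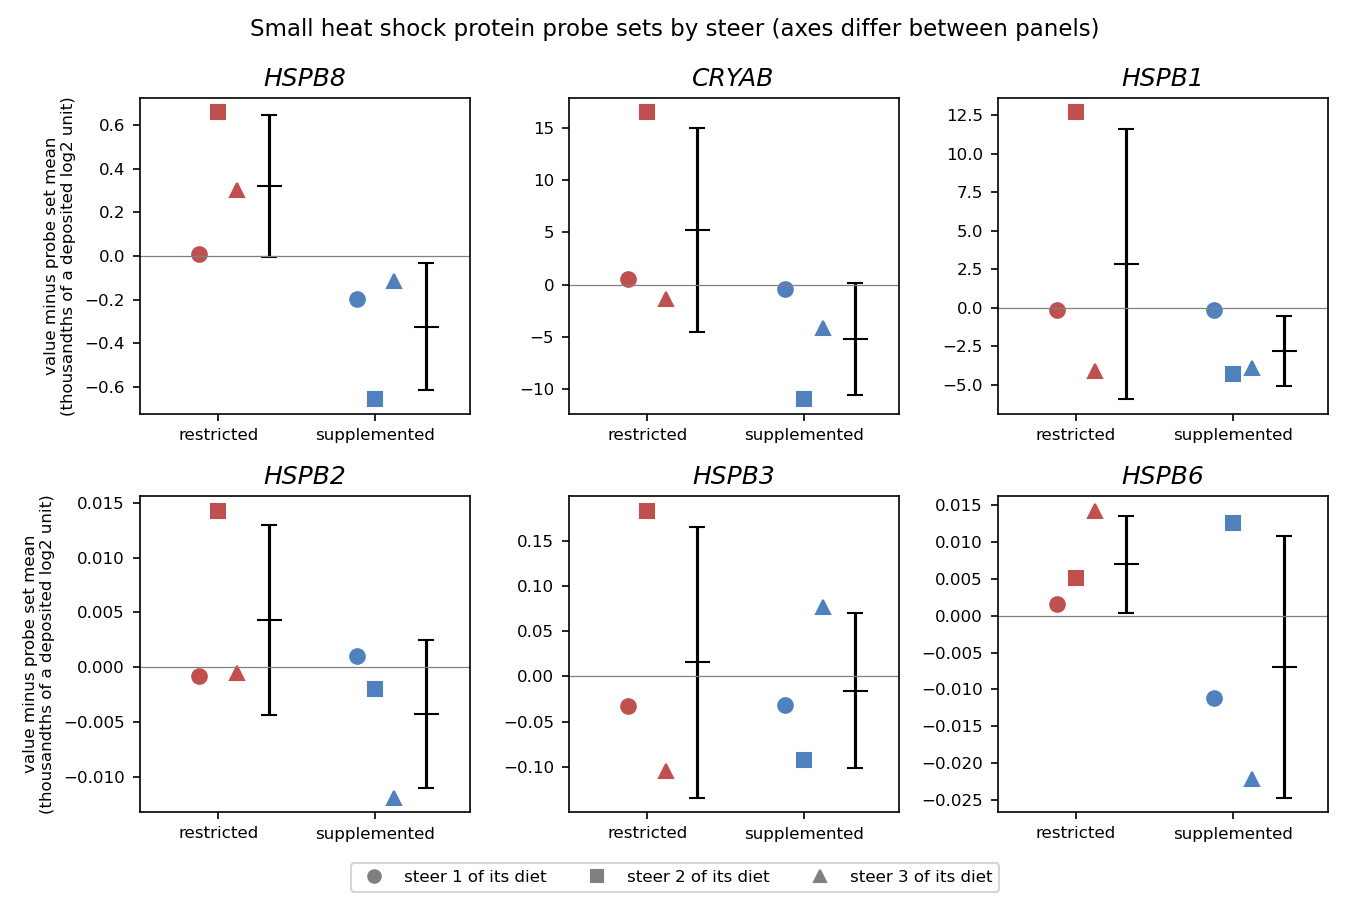
Deposited log2 values of the 6 genes, each as the distance from the mean of its probe set over the 6 arrays in thousandths of a log2 unit (y axis, a different scale in each panel), for restricted and supplemented steers (x axis). Symbols are single steers, and the bar beside them is the mean ± SD of 3 steers. HSPB8 is the 1 gene with no overlap between the diets, and the square of restricted steer 2 is on top in every panel but that of HSPB6.

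HSPB8, the partner of BAG3, had deposited log2 values of 9.380038, 9.380687 and 9.380330 in restricted steers 1 to 3, against 9.379831, 9.379373 and 9.379913 in supplemented steers 1 to 3. All 3 restricted steers lay above all 3 supplemented ones. The means were 9.380352 ± 0.000325 in restricted and 9.379706 ± 0.000291 in supplemented steers (SD, n = 3 each), a difference of 0.000646 with a standard error (SE) of 0.000238 or 2.09 within-group SDs. Its 95% limma interval ran from 1.23e-05 to 0.00128, with an unadjusted limma p of 0.0472 and an adjusted p of 1. When single steers were left out, the difference stayed between 1.79 and 2.88 SDs, with 1.80 SDs without restricted steer 2. Quantile normalization left HSPB8 equal on all arrays, so no difference remained there.

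CRYAB, or alpha-B crystallin, protects desmin and titin in muscle and heart. Its values were 8.333496, 8.349451 and 8.331587 in restricted steers 1 to 3, against 8.332519, 8.321928 and 8.328754 in supplemented steers 1 to 3. Restricted steer 2 lay far above every other steer and supplemented steer 2 below them, while restricted steer 3 lay under supplemented steer 1, so the diets overlapped. The difference was 0.0104 with an SE of 0.00610, or 1.32 SDs (95% limma interval from -0.00579 to 0.0267, unadjusted p = 0.154). It was 0.00481 without restricted steer 2. CRYAB varied more between steers than nearly all other probe sets. Its range of 0.0275 ranked 10 of 24016, with 0.0375% of probe sets wider, although the scale of the deposited values may not be the same for every probe set.

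HSPB1 encodes an actin-binding chaperone that stress kinases of the MAPKAPK family phosphorylate. The probe set with the higher mean had values of 8.782239, 8.795034 and 8.778286 in restricted steers 1 to 3, against 8.782199, 8.778087 and 8.778427 in supplemented steers 1 to 3. Again restricted steer 2 stood apart, and the gap to the next steer, restricted steer 1, took up 75.5% of the whole range. The other 5 steers lay close together with both diets mixed. The SD was 0.00875 in restricted and 0.00228 in supplemented steers. The difference was 0.00562 with an SE of 0.00493, or 0.878 SDs (95% limma interval from -0.00752 to 0.0188, unadjusted p = 0.312). Without restricted steer 2 it was 0.000692, and with age in the model 0.00203. Age in the model also made the differences of CRYAB (0.00693), HSPB2 (4.34e-06) and HSPB3 (7.19e-06) smaller. Those of HSPB6 (1.69e-05) and HSPB8 (0.000681) became larger. The range of 0.0169 of this HSPB1 probe set ranked 22 of 24016. The second HSPB1 probe set ran over 1.76e-07 in all, less than the median range of the table. Its values were 5.20465318, 5.20465314 and 5.20465309 in restricted steers, against 5.20465301, 5.20465317 and 5.20465301 in supplemented steers. They did not set restricted steer 2 apart, and their difference of 7.43e-08 became -2.15e-06 once the arrays were set to equal medians. That turn comes from the shift itself, which is larger than the range of this probe set.

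HSPB2 and HSPB3 form a complex with each other that is found mainly in striated muscle, and HSPB2 also binds the myotonic dystrophy kinase DMPK. HSPB2 had values of 6.967033, 6.967048 and 6.967034 in restricted steers 1 to 3, against 6.967035, 6.967032 and 6.967022 in supplemented steers 1 to 3. Restricted steer 2 was highest and supplemented steer 3 lowest, and the other 4 steers lay within a narrow band in which the diets overlapped. The difference was 8.61e-06 with an SE of 5.98e-06, or 1.11 SDs (95% limma interval from -7.31e-06 to 2.45e-05, unadjusted p = 0.216), which is no larger than the 8.88e-06 between array medians. Without restricted steer 2 it was 3.62e-06, and without supplemented steer 3 4.80e-06.

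HSPB3 had values of 6.072077, 6.072292 and 6.072005 in restricted steers 1 to 3, against 6.072077, 6.072017 and 6.072185 in supplemented steers 1 to 3. The highest and the lowest steer were both restricted, steers 2 and 3. The difference of 3.13e-05, with an SE of 9.38e-05, came to 0.257 SDs (95% limma interval from -0.000219 to 0.000281, unadjusted p = 0.754). Its sign rested on single animals. It was -5.24e-05 without restricted steer 2 and -6.70e-06 without supplemented steer 2.

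HSPB6, a chaperone that cyclic nucleotide dependent kinases phosphorylate and that is also known from smooth muscle relaxation, differed from the others in the order of its steers. Its values were 6.996485, 6.996489 and 6.996498 in restricted steers 1 to 3, against 6.996473, 6.996496 and 6.996462 in supplemented steers 1 to 3. Restricted steer 3 was highest, with supplemented steer 2 next to it, and the other supplemented steers were the lowest. The difference was 1.39e-05 with an SE of 1.03e-05, or 1.04 SDs (95% limma interval from -1.35e-05 to 4.12e-05, unadjusted p = 0.240), and it became -0.000146 with quantile normalization. It was 2.36e-05 or 3.40 SDs without supplemented steer 2 and 6.33e-06 or 0.573 SDs without supplemented steer 3.

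**Figure D2:**
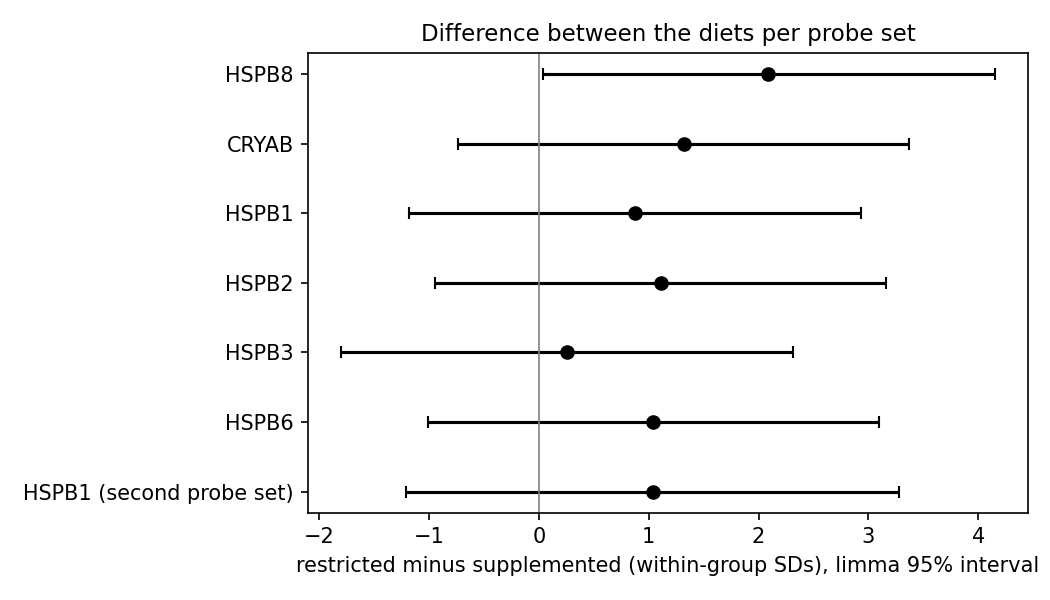
Difference between the diets, restricted minus supplemented, in within-group SDs (x axis) for each of the 7 member probe sets (y axis), with the 95% limma interval before any adjustment. All 7 points lie to the right of 0, and the interval of HSPB8 alone, from 0.0399 to 4.15 SDs, does not reach 0. The second HSPB1 probe set moves to the left of 0 with array medians set equal, HSPB6 with quantile normalization and HSPB3 without restricted steer 2 or supplemented steer 2. Quantile normalization leaves no difference in HSPB2, HSPB3, HSPB8 and the second HSPB1 probe set.

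To set the genes on 1 scale, each was expressed in its own SDs over the 6 arrays. The mean over the 6 genes was -0.0371, 1.49 and -0.0185 in restricted steers 1 to 3, against -0.247, -0.587 and -0.602 in supplemented steers 1 to 3. Restricted steers 1 and 3 thus lay between restricted steer 2 and the supplemented steers. No test was made of this mean, because the genes were chosen with earlier results of these data known.

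**Figure D3:**
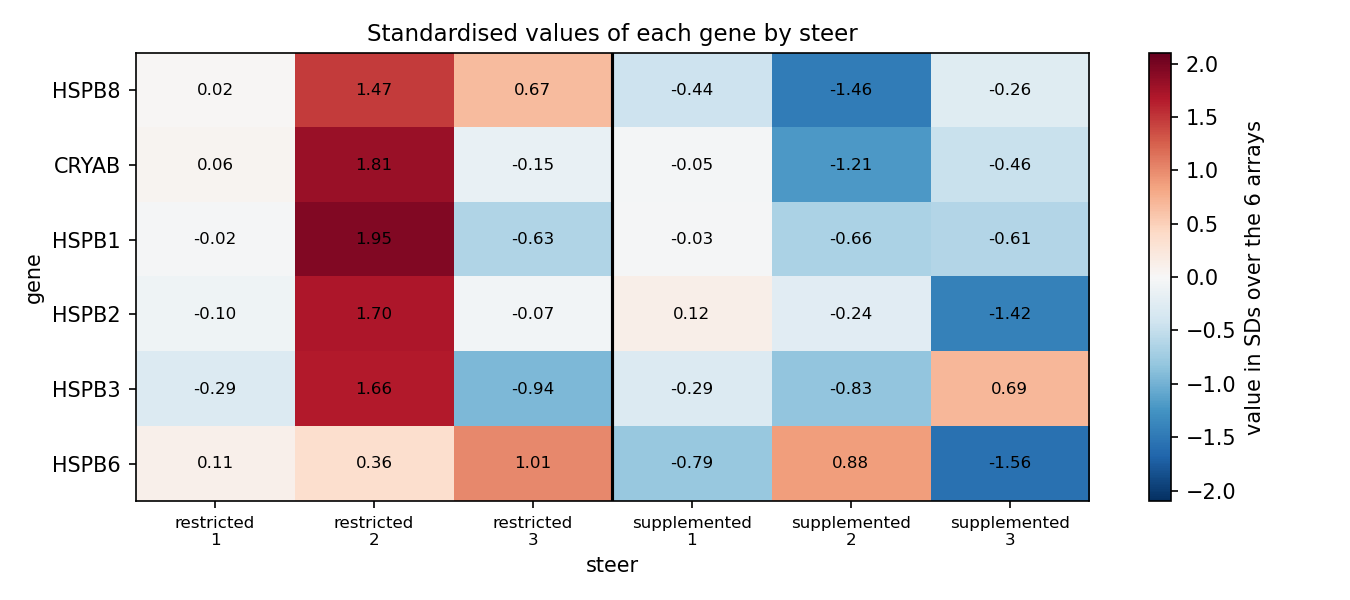
Values of the 6 genes (rows) in the 6 steers (columns, restricted left of the line) in SDs of each gene over the 6 arrays, printed in the cells and coloured from blue (low) to red (high). The column of restricted steer 2 is red from HSPB8 to HSPB3, with values from 1.47 to 1.95, and pale at 0.36 in HSPB6.

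CRYAB and HSPB1 gave the closest pair of the 15 pairs compared over the 6 steers. Pearson's r was 0.942 (exact permutation p = 0.00417, adjusted over 15 pairs 0.0625) and Spearman's rho 0.943 (exact permutation p = 0.0167, adjusted 0.25). With restricted steer 2 and supplemented steer 2 left out, the steers farthest from the median of CRYAB, r was 0.788 over 4 steers, and without restricted steer 2 alone it was 0.686. With each diet set to its own mean it was 0.941. CRYAB and HSPB8 had r = 0.894 (exact permutation p = 0.0292, adjusted 0.153) and rho = 0.714 (exact permutation p = 0.136, adjusted 0.510), with r = 0.118 without the same 2 steers and 0.801 without restricted steer 2 alone. HSPB1 and HSPB2 had r = 0.875 (exact permutation p = 0.0306, adjusted 0.153) and rho = 0.600 (exact permutation p = 0.242, adjusted 0.518). For this pair r was 0.592 without the same 2 steers and 0.483 without restricted steer 2 alone. CRYAB and HSPB2 lie next to each other in the ARS-UCD2.0 annotation, with no gene between them. They had r = 0.806 (exact permutation p = 0.0722, adjusted 0.217) and rho = 0.771 (exact permutation p = 0.103, adjusted 0.510), with r = 0.908 without the same 2 steers and 0.256 without restricted steer 2 alone. For the complex partners HSPB2 and HSPB3 r was 0.419 (exact permutation p = 0.397, adjusted 0.542) and rho 0.257 (exact permutation p = 0.658, adjusted 0.705), with r = 0.571 without restricted steer 2 and supplemented steer 3, the farthest from the median of HSPB2, and -0.812 without restricted steer 2 alone. The values with steers left out thus did not keep 1 sign. HSPB6 had r between -0.395 and 0.490 with the other 5 genes. No pair passed 0.05 after adjustment.

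**Figure D4:**
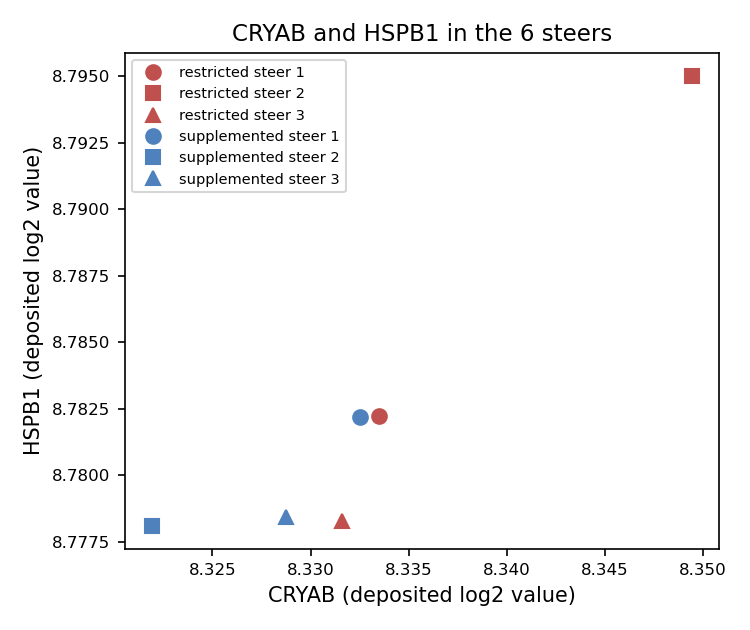
Deposited log2 values of CRYAB (x axis) and of the HSPB1 probe set with the higher mean (y axis) in the 6 steers. Restricted steer 2 lies alone at the upper right, and the 1st steers of both diets lie next to each other at 8.78 on the HSPB1 axis, above the remaining 3.

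Over 7706 probe sets of 6293 other genes with means above the median, the genes most like each member over the 6 arrays were found by Pearson's r, given here as a description. With so many candidates and 6 arrays, values near 1 are reached for every member. For HSPB1 they were TM4SF18 (r = 0.993) and FLNC (r = 0.991), the muscle filamin that HSPB1 and HSPB7 bind. For CRYAB they were CRYBB1 (0.997), a lens beta-crystallin, and VMA21 (0.991), an assembly factor of the proton pump of lysosomes. They were UFSP1 (0.998) and IAH1 (0.985) for HSPB8, NCOR1 (0.994) and SNX4 (0.987) for HSPB2, RAP1A (0.995) and UQCRB (0.989) for HSPB3, and GDF7 (0.986) and ID1 (0.983) for HSPB6. CRYBB1 and UFSP1 differed between the diets by 4.7e-08 and 2.5e-07, less than the 2.22e-06 between the array medians of the diets. Matches that vary so little may change with array medians set equal, which was not tested.

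FLNC is measured by 2 probe sets. The one matched to HSPB1 had values of 6.364057, 6.368491 and 6.363371 in restricted steers 1 to 3, against 6.364277, 6.363540 and 6.363221 in supplemented steers 1 to 3. The other, which the match did not pick, had 7.839055, 7.848532 and 7.839434 in restricted steers, against 7.840565, 7.838162 and 7.840860 in supplemented steers, restricted steer 2 being highest. Their diet differences were 0.813 and 0.630 SDs, and 0.212% and 0.133% of tested probe sets had a wider range.

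The wider chaperone network was read from 8 lists, in which 55 of 70 genes were measured. Of the 55 genes, 35 were higher and 20 lower in restricted steers, with a median of 0.180 SDs, and 0 passed the adjusted limma threshold. At an unadjusted limma p under 0.05, 5 were higher and 1 lower, against 1.91% and 2.17% of all tested probe sets. Many of these genes vary by less than the offset between array medians, which most probe sets do not share. In such genes a sign that turns with array medians set equal comes from the shift itself. The count higher after this shift is given for these lists to show how far it depends on scaling. That count stands beside 6.96% of all probe sets, a share set mostly by probe sets that vary less than the offset. Restricted steer 2 was highest in 17 of the 55, or 30.9%. The share was 15.1% of all tested probe sets and 26.5% of the 34 that ranged over more than 0.01.

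Among the partners of HSPB8 in chaperone-assisted autophagy, 6 of 8 measured genes were higher, with a median of 0.438 SDs, and 4 with array medians set equal. The constitutive chaperone HSPA8 had values of 8.168731, 8.171076 and 8.169116 in restricted steers, against 8.168477, 8.167606 and 8.169240 in supplemented steers, so that restricted steer 2 was highest and supplemented steer 2 lowest, as in CRYAB, HSPB1 and HSPB8. The difference was 1.13 SDs (limma unadjusted p = 0.209), and -0.577 SDs with quantile normalization. The DnaJ co-chaperones DNAJB6 and DNAJB1 differed by 1.21 and 0.677 SDs, and by -0.704 and -0.394 SDs with array medians set equal. BAG3, which was looked up after the rule had chosen the others, differed by 0.0670 SDs and was highest in supplemented steer 3.

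Large chaperones were higher in 8 of 11 genes, with a median of 0.758 SDs, and in 5 with array medians set equal. HSPE1 and HSPD1, which together fold proteins in mitochondria, differed by 4.21 and 2.27 SDs (limma unadjusted p = 0.00391 and 0.0366, adjusted p = 1 each). HSPH1, a nucleotide exchange factor for HSP70 chaperones, differed by 2.12 SDs (limma unadjusted p = 0.0455), with 3 of its 4 probe sets higher. The groups did not overlap in these 3 genes, where restricted steers lay above without overlap in 4.12% of all tested probe sets. The 3 were named for the smallest p of their list, a choice that favours groups without overlap. HSPH1 was highest in restricted steer 2, HSPE1 in restricted steer 3, as was HSPB6, and HSPD1 in restricted steer 1. With quantile normalization the difference of HSPD1 was 0. Of the heat shock factors, HSF2, HSF1 and HSF4 differed by 0.943, -0.851 and 0.0773 SDs, with unadjusted limma p of 0.282 or more, and HSF4 became -0.737 SDs with array medians set equal, when 1 of the 3 was higher, and -0.206 SDs with quantile normalization. The other alpha-crystallin domain genes on the array, CRYAA of the lens and ODF1 of sperm, differed by 0.338 and -0.842 SDs, CRYAA turning to -0.525 SDs with array medians set equal, when 0 of the 2 were higher.

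Of the sarcomere and filament proteins that these chaperones guard, 8 of 11 were higher, with a median of 0.143 SDs, and 6 with array medians set equal. MYOT, the Z-disc protein myotilin, differed by 3.11 SDs (limma unadjusted p = 0.0124, adjusted p = 1), the restricted steers all lying above the supplemented ones, and NEB and MYOZ2 by -1.04 SDs each. Restricted steer 2 was highest in 5 of the 11, and DES was 1 of them, with a diet difference of 0.113 SDs. Kinases and phosphatases acting on HSPB1 and HSPB6 were higher in 5 of 6, led by PPP1CA at 3.55 SDs (limma unadjusted p = 0.00811, adjusted p = 1), a difference of 6.08e-07 that became -1.62e-06 with array medians set equal, when 2 of the 6 were higher. In the same list MAPK14 and PPP1CB differed by 0.535 and -0.434 SDs.

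Fibre type genes were set beside the chaperones because slow fibres are known to be richer in CRYAB. Slow fibre genes were higher in 5 of 8, or 4 with array medians set equal, with a median of 0.101 SDs, MYOZ2, ATP2A2 and TPM3 differing by -1.04, 0.809 and 0.530 SDs. Restricted steer 2 was highest in 0 of the 8, and the list mean was 1.21, -0.683 and -0.446 in restricted steers 1 to 3, against -0.631, 0.0720 and 0.474 in supplemented steers 1 to 3. Fast fibre genes had lower means in 7 of 7, with a median of -0.730 SDs, where 51.7% of all tested probe sets were lower. With array medians set equal 0 of the 7 were higher, but that shift itself lowers restricted values. MYL1, TNNT3 and TNNC2 differed by as little as -1.37e-07, -1.33e-07 and -6.67e-08. Quantile normalization left a difference in 0 of the 7. They were led by MYH1 at -3.46 SDs (limma unadjusted p = 0.00836, adjusted p = 1), of whose 8 probe sets 2 were higher, and by ACTN3 and TNNI2 at -1.32 and -0.977 SDs.

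**Figure D5:**
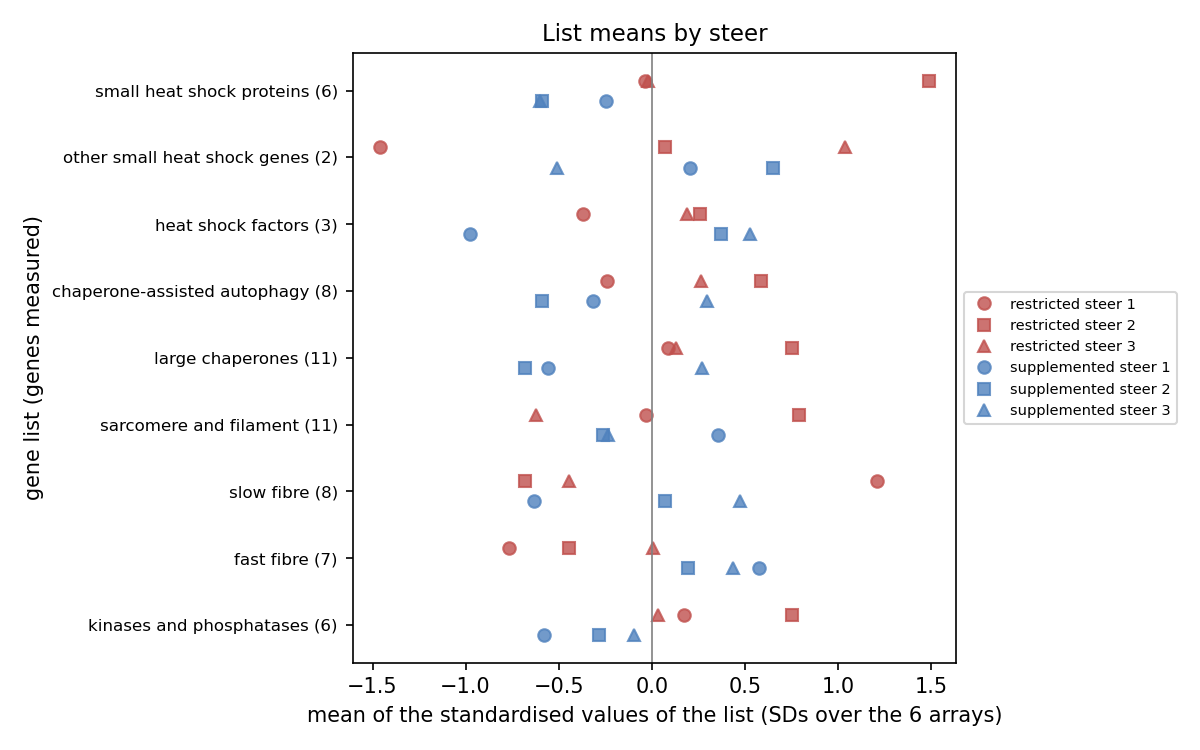
Mean of the standardised values of each gene list (x axis, in SDs over the 6 arrays) for the small heat shock proteins and the 8 network lists (y axis, genes measured in brackets), with restricted steers in red above supplemented steers in blue. Restricted steer 2, the red square, lies at 1.49 for the small heat shock proteins and at 0.585 to 0.794 for the autophagy, large chaperone, sarcomere and kinase lists, while it lies at -0.683 for slow fibre genes.

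Smooth muscle also makes HSPB6, HSPB1 and CRYAB. All 5 measured smooth muscle and pericyte markers were higher in restricted steers, with a median of 0.957 SDs and 0 past the adjusted threshold, and 4 were higher with array medians set equal and 3 with quantile normalization. Markers of other cells were higher too, 4 of 4 measured adipocyte markers with a median of 0.836 SDs (3 in both of these rescalings) and 4 of 5 endothelial markers with a median of 0.704 SDs (2 with array medians set equal). Higher values were also found in 2 of 3 macrophage, 2 of 3 red blood cell and 2 of 5 fibroblast markers, with medians of 0.258, 0.536 and -0.0368 SDs. With array medians set equal these counts were 0, 0 and 2. With quantile normalization they were 2 of the 2, 0 of the 1 and 2 of the 3 markers that could be fitted. No red blood cell marker had a mean above the median of the table. The part of these cells in the diet differences of the small heat shock genes was not tested. For the smooth muscle and pericyte list, the mean deposited log2 value ran from 5.69845 to 5.69871 in restricted steers. It ran from 5.69844 to 5.69847 in supplemented steers, restricted steer 1 being highest of all. In standardised form restricted steer 2 lay at -0.0919 for this list, -0.483 for 4 adipocyte, -0.622 for 5 fibroblast, -0.317 for 3 macrophage, -1.08 for 3 red blood cell and 0.240 for 5 endothelial markers. It was the highest of the 6 steers in none of these list means. The 3 prime minus 5 prime difference of the housekeeping controls, a sign of RNA integrity, was highest in restricted steer 2 for 1 of 6 transcripts, eIF-4E. Supplemented steer 3 was highest for actin, ef1a and gapd, and restricted steer 1 for Cyph and GST. Exact two-sided permutation p values between the diets ran from 0.4 to 0.9. Like the rest of the table, most of these controls hardly vary between arrays, which limits what they show of RNA integrity. Among the 34 probe sets that ranged over more than 0.01, restricted steer 2 was highest in 9, or 26.5%. Besides CRYAB and HSPB1 these included the immediate early gene FOS, chosen here after its values were seen. FOS had 5.436985, 5.698209 and 5.592638 in restricted steers 1 to 3, against 5.635485, 5.652591 and 5.509427 in supplemented steers 1 to 3. The part of handling or of stress in the high values of restricted steer 2 was not tested.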

How the data were processed

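Total RNA of 6 muscles was extracted with Trizol, purified on RNeasy columns, and 100 ng was labelled with biotin for an Affymetrix 3 prime array, per the labels' protocols. The authors deposited 1 table of 24128 probe sets, taken here as log2 values from their range. No source used here gives its log base, background correction, normalization or summarization. Genes came from the platform annotation, and all member identifiers matched current records of ARS-UCD2.0.

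After 112 control probe sets were left out, 24016 entered a linear model (R 4.3.3, limma 3.58.1, lmFit with eBayes), restricted minus supplemented, with Benjamini-Hochberg adjustment. Residual degrees of freedom were 4, and the prior added 0.483. The code was checked on simulated data with differences far larger, in within-group SDs, than those of the members. The check therefore does not show whether differences of the members' size would be found. A gene in a list stands as the probe set of highest mean. Per list, up to 3 genes with the smallest p are named, and per member the 2 most correlated genes. Members, lists and tests were chosen with earlier results of these data known. Replicates are different steers, so p-values measure the spread between steers. The number of arrays limits the precision, as does the unstated step behind the narrow spread of the values. Alternatives covered normalization, filters, age, pairing, variance model and each steer left out.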

Additional observations from a re-analysis of the deposited data

How the results depend on the processing

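No member probe set and no network gene passed the adjusted threshold under any of the 14 alternatives run. In 90 of 94 refits of single member probe sets the direction held, and the smallest adjusted p was 0.571. The exceptions were the second HSPB1 probe set with array medians set equal (-2.15e-06), HSPB6 with quantile normalization (-0.000146) and HSPB3 with a steer left out, where its difference ran from -5.24e-05 to 9.12e-05. The filters on the mean, the intensity trend and the replicate block leave each difference as it was, so those refits could not change direction. Quantile normalization gave no difference for HSPB2, HSPB3, HSPB8 and the second HSPB1 probe set, and these are not among the 94. Member genes with a higher restricted mean numbered 5 to 6 with single steers left out and 2 with quantile normalization, which left 15456 probe sets equal on all arrays and so gave a difference for 3 members alone, CRYAB, HSPB1 and HSPB6. Over all tested probe sets, the count past the threshold was 1 as planned, 22 with quantile normalization, 0 with age as a covariate, 0 with the replicate block and 1 to 2 with single steers left out. The deviations of same-numbered steers had r of 0.0374, 0.0151 and 0.0152, against -0.0214 to 0.0061 for steers of different numbers, all of them near 0. Whether same-numbered steers share more than a number was not tested. The difference in age ran from -18 to -7 days with single steers left out.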
